A study of Mus musculus with 27 samples.

Results

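UTX binding sites of mouse embryonic stem cells (ESC) were compared with those of fibroblasts in which reprogramming had been switched on. The peaks of the WT ESC UTX list and of the WT MEF dox UTX list were taken whole and matched by position, with a shared site defined as an overlap of at least 1 bp and a neighbouring site as a gap of at most 2500 bp. The lists held 5076 peaks in WT ESC and 3540 in WT MEF dox, together 8616 of the 234651 peaks in the 19 lists of the series. The question was whether the demethylase sits at the same places in pluripotent cells and in fibroblasts on the way to pluripotency, and how near those places are to H3K4me3 of the same cells.

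UTX removes methyl groups from lysine 27 of histone H3, the mark H3K27me3 laid down by Polycomb proteins over repressed genes. It is also a subunit of the MLL3 and MLL4 complexes, which methylate lysine 4 of the same histone, mainly at enhancers. H3K4me3, in contrast, is the usual mark of active and poised promoters, so its peaks serve here as a map of marked promoters.

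The series mapped UTX, H3K4me3 and H3K27me3 by ChIP-seq, in which DNA bound by a protein or carrying a histone mark is pulled down with an antibody and sequenced. The WT ESC were V6.5 cells, an established line, of genotype Utx+/Y, expanded in serum-free N2B27 medium with 2i inhibitors and LIF and without doxycycline. The WT MEF dox were mouse embryonic fibroblasts of strain V19-OSKM, also Utx+/Y, expanded in 2i/LIF with doxycycline (dox), which induced OSKM, the set of reprogramming factors (Oct4 and Sox2 with Klf4 and c-Myc). The same V19-OSKM fibroblasts without dox are called WT MEF. Utx-KO ESC, Utx-KO MEF with and without dox and 2 aberrant iPS clones, all Utx-/Y, contributed histone mark lists. Strain, cell type and dox with OSKM induction therefore change together between both UTX lists, and their parts cannot be told apart. UTX was mapped with the same antibody, UTX 5/1, in both, and with 1 library in each, so no difference below has a replicate check and none was tested. The duration of dox was not given in the sources used here. Cell types were taken from the labels. Their marker genes were not analysed here, because the gene positions at hand belong to another genome build than mm9, the build of the peaks. For the same reason sites are named by their mm9 position and not by gene, and no sequence is shown.

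Peaks in WT ESC were stronger and somewhat wider than those in WT MEF dox. The authors' score, which grows with the evidence for a peak, had a median of 73.8 in WT ESC and 56.0 in WT MEF dox, where 50 was about the lowest score kept. A score of at least 100 was reached by 1352 peaks (26.6%) in WT ESC and by 16 peaks (0.452%) in WT MEF dox. Median widths were 627 bp and 572 bp, and the peaks covered 3.51 Mb in WT ESC against 2.08 Mb in WT MEF dox. A score of at least 60 was reached by 74.2% in WT ESC and 31.4% in WT MEF dox, so most of the WT MEF dox list lay close to the lowest score kept. A score depends on read depth as well as on enrichment, and read depth was unknown, so the contribution of depth to this gap was not tested. Chromosome X held 47 peaks (0.926%) in WT ESC and 32 (0.904%) in WT MEF dox, and neither list had a peak on Y.

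**Figure D1:**
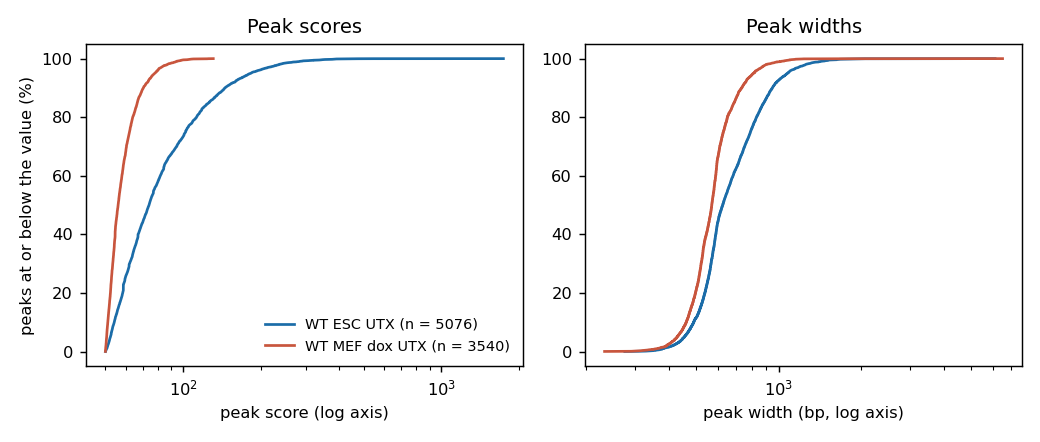
Cumulative share of UTX peaks (%) by peak score (left, log axis) and by peak width in bp (right, log axis) for WT ESC and WT MEF dox. The WT MEF dox scores end at 131 while the WT ESC scores run to 1737, and the widths lie closer together, with medians of 627 and 572 bp.

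Few sites were shared. Merging overlapping peaks of both lists gave 8591 regions, of which 5051 were found only in WT ESC (58.8% of all), 3515 only in WT MEF dox (40.9%) and 25 in both (0.291%). The 25 shared regions made up 0.493% of the WT ESC peaks (Wilson 95% interval 0.334 to 0.726) and 0.706% of the WT MEF dox peaks (0.479 to 1.04). These and all later intervals cover counting error only, and neighbouring peaks are not independent. Extending the search to 2500 bp added few, with 81 WT ESC peaks (1.60%) and 77 WT MEF dox peaks (2.17%) having a neighbour in the other list. The median gap to the nearest peak of the other list was 208 kb for WT ESC and 206 kb for WT MEF dox, and 17.5% of WT ESC peaks and 19.8% of WT MEF dox peaks had one within 50000 bp. The neighbours just inside the limit had gaps of 2319, 2364 and 2459 bp, and those just outside had gaps of 2526, 2561 and 2718 bp. None of the 372 UTX peaks of WT MEF without dox overlapped a WT MEF dox peak, which allows a share of up to 0.806% of the WT MEF peaks if up to 3 peaks are allowed for a count of 0.

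Shared peaks came from all score classes. Divided by score into 4 classes of equal size, from strongest to weakest, the WT ESC list contributed 8, 8, 4 and 5 of the shared peaks. In WT MEF dox the strongest class contributed 12 of the 25 shared peaks (1.36% of that class), and the other classes 3, 4 and 6. The shared peaks had a median score of 79.0 in WT ESC and 59.1 in WT MEF dox, against 73.7 and 56.0 for the remaining peaks. At 19 of the 25 sites the score was higher in WT ESC, where the median of the remaining peaks was higher too. The scores come from libraries of unknown depth, so their order at a site is not a measure of binding.

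The 25 shared sites lay on 14 chromosomes, and 4 of them on chromosome 8. The stretch shared by both peaks was 20 to 6127 bp long, with a median of 436 bp. H3K4me3 of the same cells was present in both cells at 8 sites, in WT ESC alone at 2, in WT MEF dox alone at 3 and in neither at 12. At 10 sites none of the 16 histone mark lists had a peak.

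Only 1 shared site scored at least 100 in both lists. It lay at chr11:61317911-61319063, with a score of 108 in WT ESC and 107 in WT MEF dox, and all 8 H3K4me3 lists and none of the 8 H3K27me3 lists had a peak there. The highest score of either list also belonged to a shared site, chr17:39979741-39986263, which reached 1737 in WT ESC and 98.0 in WT MEF dox. That site was far wider than the others, and 3 H3K4me3 lists and 1 H3K27me3 list had peaks in it. The contribution of reads from repeated sequence at this position was not tested, so its score and its call as shared are uncertain. Without UTX peaks at positions with both marks, 0.632% of the WT MEF dox peaks were shared. WT MEF dox was the stronger list at chr5:64800665-64802225, where WT ESC scored 84.1 and WT MEF dox 107, with no mark in any list and an overlap of 25 bp. The score also leaned to WT MEF dox at chr16:11143991-11144632, with 75.9 in WT ESC and 94.0 in WT MEF dox, where both cells carried H3K4me3. At chr1:36117561-36118731 it leaned the other way, with 188 in WT ESC and 56.7 in WT MEF dox. That site had no mark in any list, and the nearest H3K4me3 peak was 1866 bp away in WT ESC and 2556 bp away in WT MEF dox. Among shared sites with H3K4me3 in WT ESC alone, chr3:104618147-104619132 scored 128 in WT ESC and 54.1 in WT MEF dox. Among those with H3K4me3 in WT MEF dox alone, chr7:80751619-80752491 scored 76.7 in WT ESC and 63.0 in WT MEF dox. In both examples the UTX score was higher in WT ESC, whichever cell had the H3K4me3 peak.

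**Figure D2:**
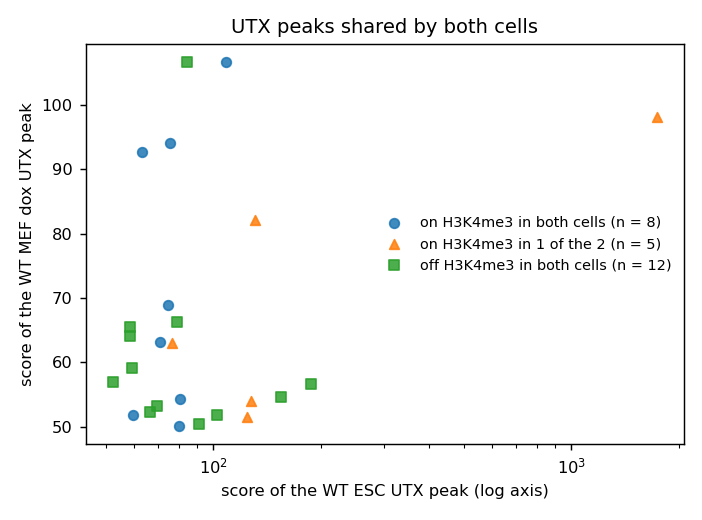
Scores of the 25 shared UTX sites in WT ESC (horizontal, log axis) and WT MEF dox (vertical). Symbols give H3K4me3 of the same cells, present in both at 8 sites, in 1 of the cells at 5 and in neither at 12, and the point on the far right is the chromosome 17 site with scores of 1737 and 98.0.

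UTX lay on H3K4me3 more often in WT ESC. Of the WT ESC peaks 1326 (26.1%, 24.9 to 27.35) overlapped an H3K4me3 peak of WT ESC, and of the WT MEF dox peaks 267 (7.54%, 6.72 to 8.46) overlapped one of WT MEF dox. The difference was 18.6 percentage points (95% interval from both Wilson intervals 17.1 to 20.1). Within 2500 bp the shares were 35.6% in WT ESC and 13.6% in WT MEF dox, a difference of 22.0 points (20.3 to 23.7). Within 10000 bp they were 51.3% and 24.4%. H3K4me3 covered 46.1 Mb (1.75% of the span of all lists) in WT ESC and 52.0 Mb (1.97%) in WT MEF dox, so the cells with fewer UTX peaks on H3K4me3 had slightly more of it.

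Over all UTX peaks, H3K4me3 was nearer in WT ESC. The median distance, counting an overlap as 0, was 9.03 kb (8.27 to 10.0) in WT ESC and 42.8 kb (39.4 to 46.2) in WT MEF dox. More than 50000 bp from any H3K4me3 peak lay 21.8% of the WT ESC peaks and 47.0% of the WT MEF dox peaks. No mark of either kind in any of the 16 lists was found at 3211 peaks (63.3%) in WT ESC and at 3056 (86.3%) in WT MEF dox. H3K4me3 in all 8 lists was found at 354 (6.97%) and 106 (2.99%).

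The gap between the UTX lists did not close when the H3K4me3 maps were exchanged. WT ESC UTX peaks lay on H3K4me3 of WT MEF dox in 17.3% of cases, and WT MEF dox UTX peaks lay on H3K4me3 of WT ESC in 6.30%. On H3K4me3 of WT MEF without dox lay 8.96% of WT ESC peaks and 4.15% of WT MEF dox peaks. Each UTX list met the H3K4me3 map of its own cells more often than that of the other cells, but the share followed the UTX list more than the map.

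**Figure D3:**
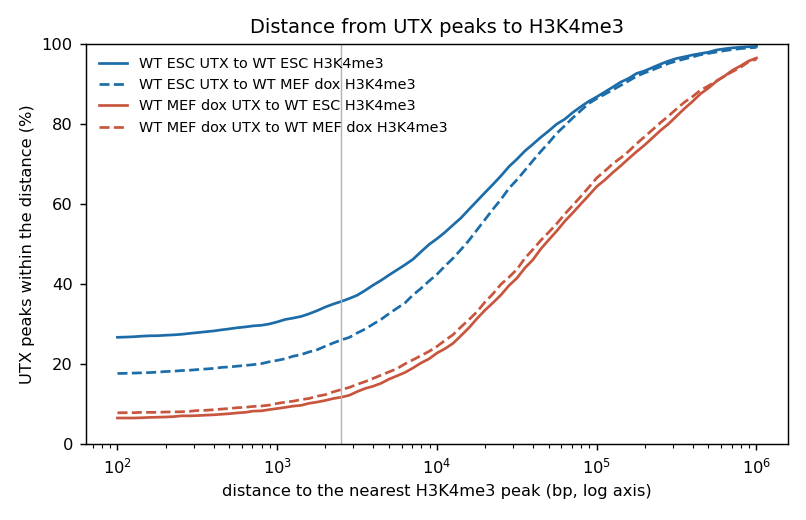
Share of UTX peaks (%) within a given distance (bp, log axis, from 100 bp, overlaps included) of the nearest H3K4me3 peak of WT ESC (solid) and WT MEF dox (dashed), with a grey line at 2500 bp. Both WT ESC curves run above both WT MEF dox curves up to 100 kb, and at 2500 bp they stand at 35.6% for WT ESC and 13.6% for WT MEF dox on the map of their own cells.

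Peaks of like score were compared, since the lists differed in score. Read depth was unknown, so a like score in both lists need not mean a like strength of binding. Among peaks scoring 50 to 55, the shares on H3K4me3 were 22.5% (19.4 to 25.9) in WT ESC and 6.56% (5.44 to 7.89) in WT MEF dox. Between 60 and 70 they were 23.5% and 8.48%, and between 70 and 100 they were 24.9% and 10.5%. At 100 or more the share was 31.0% of 1352 peaks in WT ESC and 25.0% (4 of 16 peaks, 10.2 to 49.5) in WT MEF dox, too few to place it. The strongest peaks had the highest share in both lists, with 34.1% among the strongest 507 WT ESC peaks against 23.2% among the weakest 508. For WT MEF dox it was 11.02% among the strongest 354 and 5.37% among the weakest 354. Over 10 score classes per list, the lowest WT ESC share (20.1%) was above the highest WT MEF dox share.

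**Figure D4:**
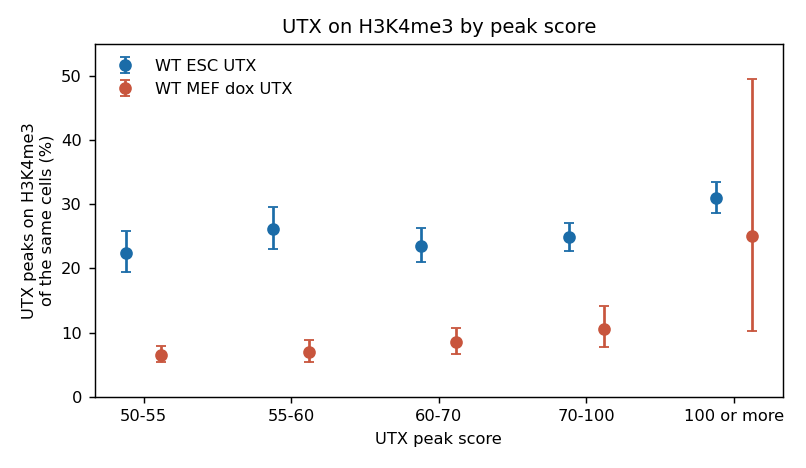
Share of UTX peaks on H3K4me3 of the same cells (%) by score class, with Wilson 95% intervals as bars, for WT ESC (left point of each pair) and WT MEF dox. Below a score of 100, WT ESC lies at 22.5 to 26.2% and WT MEF dox at 6.56 to 10.5%, and the WT MEF dox value at 100 or more rests on 16 peaks.

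Of the 5 strongest WT ESC peaks on H3K4me3, 4 sat on H3K4me3 peaks below the median width (2099 bp) and score (421) of the WT ESC list. At most 2 H3K4me3 lists had a peak at these 4 UTX peaks. The first, chr14:55704195-55705387, had a UTX score of 546 on an H3K4me3 peak of score 161. Only WT ESC and Utx-KO ESC had H3K4me3 at this UTX peak. At chr13:41240536-41242021, with a UTX score of 474, and at chr12:4904344-4905600, with 420, the H3K4me3 peaks scored 58.1 and 63.8. No list but WT ESC had H3K4me3 at these 2 UTX peaks. The peak at chr18:85102973-85104608, with a UTX score of 392, differed in lying on a 6081 bp wide H3K4me3 peak of score 3100. Utx-KO ESC and both iPS clones had H3K4me3 at it too. At chr1:183960156-183960959 a UTX score of 383 stood over an H3K4me3 score of 59.3, and Utx-KO ESC alone also had H3K4me3 there. Strong WT ESC peaks away from H3K4me3 were found at chr8:66407556-66408983 (score 406), chr14:122814920-122816258 (390) and chr5:16474443-16475565 (384). These lay 2.51, 8.22 and 605 kb from H3K4me3 of WT ESC, and no mark list had a peak at them. A peak at chr2:98502238-98503287 scored 421 in WT ESC and carried peaks of both marks in WT MEF and Utx-KO MEF, and WT MEF had a UTX peak there as well. Whether reads of repeated sequence contribute at that position was not tested, and it is uncertain as a UTX site.

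Most of the strongest WT MEF dox peaks were away from H3K4me3. Of the 10 with the highest scores, 8 lay 8.09 to 626 kb from H3K4me3 of WT MEF dox and had no peak in any mark list. They were led by chr18:6085979-6087125 (score 131), chr16:3116182-3116537 (125) and chr18:11826175-11827231 (124). The 2 on H3K4me3 were the shared chromosome 11 site and chr6:124434645-124435527 (score 110). The chromosome 6 site had H3K4me3 in WT ESC, Utx-KO ESC, both iPS clones and WT MEF dox. It had none in WT MEF or in Utx-KO MEF with or without dox. A further strong peak on H3K4me3, chr1:60401787-60402410 (score 105), had H3K4me3 in WT and Utx-KO MEF with dox and in no other list.

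From the side of H3K4me3, few peaks carried UTX in either cell. UTX was found on 1291 of 19468 H3K4me3 peaks in WT ESC (6.63%) and on 264 of 19689 in WT MEF dox (1.34%). UTX-bearing H3K4me3 peaks were wider than the others, with medians of 2519 against 2077 bp in WT ESC and 3150 against 2369 bp in WT MEF dox. Their H3K4me3 scores were about level in WT ESC (medians 407 with UTX and 422 without) and higher with UTX in WT MEF dox (1977 and 885).

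Wide H3K4me3 peaks carried UTX most often in both cells. In WT ESC 16.4% (14.9 to 18.1) of the widest 1947 H3K4me3 peaks had UTX, against 4.88% of the narrowest 1946. In WT MEF dox the shares were 3.66% of the widest 1969 and 0.559% of the narrowest 1968. Per Mb of H3K4me3, with any overlap of at least 1 bp counted, the order differed. WT ESC had 51.2 UTX peaks per Mb on the narrowest class, 19.3 on the class from 2721 to 3147 bp and 34.6 on the widest. The WT MEF dox count ran from 3.73 to 6.44 per Mb over the 10 width classes, with 6.04 on the narrowest. The UTX peak lay fully inside the H3K4me3 peak for 57.8% of WT ESC and 69.7% of WT MEF dox peaks on H3K4me3. The UTX midpoint lay in the inner 50% of the peak for 40.3% of WT ESC and 41.2% of WT MEF dox peaks. It lay beyond the edge for 16.7% and 15.4%. On WT ESC H3K4me3 peaks at most 1000 bp wide, the midpoint lay beyond the edge for 52.6% of 57 UTX peaks. On those over 3000 bp it did so for 7.82% of 550. The count per Mb on narrow WT ESC peaks thus includes many UTX peaks centred outside them, and the order was not tested by midpoints.

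Few H3K4me3 peaks carried UTX in both WT ESC and WT MEF dox, where few carried it in either cell. Of the 1291 in WT ESC, 769 also met H3K4me3 in WT MEF dox, and at 24 of them that H3K4me3 peak carried UTX as well. These were 1.86% of the UTX-bearing H3K4me3 peaks of WT ESC and 9.09% of those of WT MEF dox. Among those with H3K4me3 in both cells, the shares were 3.12% for WT ESC and 10.6% for WT MEF dox. Beside the shares of 1.86% and 9.09% stand those of all H3K4me3 peaks that carried UTX in the other cells, 1.34% in WT MEF dox and 6.63% in WT ESC. Among H3K4me3 peaks met in both cells, 226 of 14474 in WT MEF dox and 769 of 14829 in WT ESC carried UTX of their own cells.

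In WT ESC, H3K4me3 peaks with UTX were less widely shared between cells than H3K4me3 peaks without it. WT MEF had H3K4me3 at 43.4% (40.7 to 46.1) of those with UTX and at 61.7% (61.0 to 62.4) of those without, where 60.4% of all WT ESC H3K4me3 peaks were met. Utx-KO MEF had it at 44.0% with UTX and 62.8% without (61.6% of all). With dox, WT MEF had it at 59.6% with UTX and 77.4% without (76.2% of all), and Utx-KO MEF at 50.4% and 73.0% (71.5% of all). In the iPS clones the shares were 67.9% with UTX and 85.6% without in clone 1 (84.4% of all), and 81.3% and 93.4% in clone 2 (92.6% of all). H3K4me3 in all 8 lists was found at 40.3% of the peaks with UTX and 57.1% of those without, and H3K4me3 in WT ESC alone at 10.1% and 3.88%. The order held in 10 of 10 width classes for each of the 7 other H3K4me3 lists.

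Utx-KO ESC, the cells of the same line without the demethylase, showed the same order. H3K4me3 was present in Utx-KO ESC at 78.7% (76.4 to 80.9) of the WT ESC H3K4me3 peaks with UTX and at 88.0% (87.6 to 88.5) of those without, where 87.4% of all were met. The difference was -9.34 points (-11.7 to -7.14). Against UTX-free peaks weighted to the same widths it was -12.3 points, and against those weighted to the same scores -8.38 points. The unweighted difference was smaller than those in the other 6 lists, which ran from -12.1 to -22.5 points.

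For the H3K4me3 peaks of WT MEF dox the relation ran the other way, and it was lost at equal width. H3K4me3 of WT MEF was found at 79.2% (73.9 to 83.6) of the WT MEF dox H3K4me3 peaks with UTX and at 64.3% of those without (64.5% of all). Utx-KO MEF with dox had it at 86.7% with UTX and 78.4% without (78.6% of all). Utx-KO MEF without dox had it at 78.8% with UTX and 66.3% without (66.4% of all). WT ESC had it at 85.6% and 73.4% (73.5% of all), and Utx-KO ESC at 85.2% and 73.7% (73.9% of all). The iPS clones had it at 87.1% with UTX and 78.4% without in clone 1 (78.6% of all), and at 92.8% and 85.6% in clone 2 (85.7% of all). Weighted to the widths of the UTX-bearing peaks, the shares without UTX became 78.5% in WT MEF and 88.3% in Utx-KO MEF with dox, and the differences shrank to 0.65 and -1.51 points. Over all 7 other H3K4me3 lists the differences at equal width lay between -1.51 and 0.87 points.

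**Figure D5:**
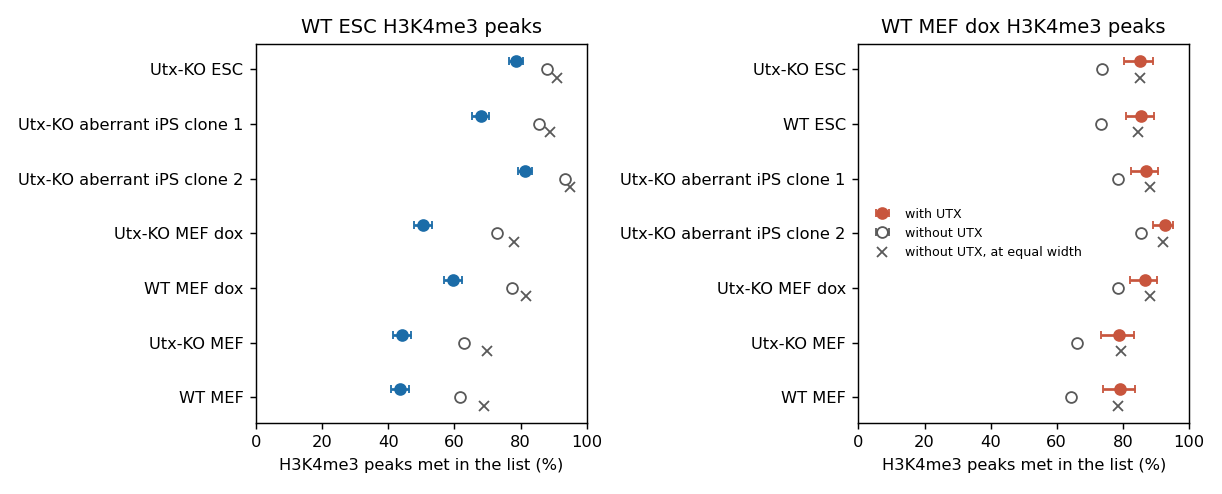
Share of WT ESC (left panel) and WT MEF dox (right panel) H3K4me3 peaks that met H3K4me3 in each other list (%), for peaks with UTX (filled), without UTX (open) and without UTX weighted to equal widths (crosses), with Wilson 95% intervals as bars. On the left the filled points lie below the open points in every list, with differences of -9.34 to -22.5 points, and on the right they lie beside the crosses.

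Sites that gained H3K4me3 with dox in WT fibroblasts were examined as a subset. Of the WT ESC H3K4me3 peaks 3110 met H3K4me3 in WT MEF dox and not in WT MEF, and 209 of these carried UTX in WT ESC. Utx-KO MEF with dox also had H3K4me3 at 39.2% (32.9 to 46.0) of the 209 sites with UTX and at 67.5% (65.8 to 69.2) of the 2901 without. The difference was -28.3 points (-34.9 to -21.3), and the share without UTX at equal widths was 66.7%. Over all 3110 the share was 65.6%. Over all WT ESC H3K4me3 peaks, gained or not, the difference with minus without UTX in Utx-KO MEF with dox was -22.5 points. In lists of cells with Utx it was -17.8 points in WT MEF dox and -18.3 points in WT MEF. Counted instead by UTX peaks, 443 WT ESC and 120 WT MEF dox UTX peaks lay where WT MEF dox and not WT MEF had H3K4me3. Utx-KO MEF with dox had H3K4me3 at 44.9% of these WT ESC UTX peaks and at 60.0% (51.1 to 68.3) of these WT MEF dox UTX peaks. The lists with dox differ in length, with 16157 H3K4me3 peaks in Utx-KO MEF and 19689 in WT MEF, and the part of detection in these shares was not tested.

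UTX peaks rarely overlapped H3K27me3, with or without Utx in the cells. Of the WT ESC UTX peaks 142 (2.80%, 2.38 to 3.29) lay on H3K27me3 of Utx-KO ESC, a list that covers 3.02% of the span. On H3K27me3 of WT ESC, a far shorter list that covers 0.235% of the span, lay 11 (0.217%). Of the WT MEF dox UTX peaks 16 (0.452%) lay on H3K27me3 of Utx-KO MEF with dox and 7 (0.198%) on that of WT MEF dox, lists that cover 0.243% and 0.0244% of the span. The shares of WT ESC UTX peaks on H3K27me3 were close to the shares of the span that the lists cover. Those of WT MEF dox UTX peaks were above them, on counts of 16 and 7. A share of the span is not the share expected for an overlap of 1 bp, which also depends on peak widths. No expected share was computed. Within 2500 bp of H3K27me3 lay 10.5% of the WT ESC UTX peaks for the Utx-KO ESC list and 1.44% for the WT ESC list. For WT MEF dox UTX peaks the shares were 0.961% for Utx-KO MEF with dox and 0.424% for WT MEF dox. At both limits the count was higher on the Utx-KO lists, which are also the longer ones.

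Among H3K4me3 peaks, those with UTX met H3K27me3 less often in most lists. Utx-KO ESC had H3K27me3 at 5.27% (4.18 to 6.62) of the WT ESC H3K4me3 peaks with UTX and at 25.6% (25.0 to 26.2) of those without, where 24.2% of all were met. WT ESC had it at 0.852% with UTX and 7.44% without (7.01% of all). At equal widths the shares without UTX were 21.6% and 6.34%. For the H3K4me3 peaks of WT MEF dox, H3K27me3 of Utx-KO ESC was met by 18.2% (14.0 to 23.3) of the H3K4me3 peaks with UTX and by 31.5% of those without (31.3% of all). H3K27me3 of Utx-KO MEF with dox was met by 5.30% with UTX and 10.8% without (10.7% of all). H3K27me3 of WT MEF dox itself was met by 0.758% with UTX and 1.21% without (1.2% of all), a difference of -0.45 points whose interval (-1.03 to 1.51) includes 0. The order was opposite in iPS clone 2, with 0.758% (2 of 264 peaks) with UTX and 0.124% without (0.132% of all). Over all 8 H3K27me3 lists, the share was lower with UTX in 8 for WT ESC H3K4me3 peaks and in 7 for WT MEF dox, with the whole interval below 0 in 5 and 3.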

How the data were processed

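Peak lists of 19 ChIP-seq libraries were used, 3 for UTX, 8 for H3K4me3 and 8 for H3K27me3. The authors deposited 1 list per library with the position, name and score of each peak, and the score has the range of the MACS score (-10 log10 p). The tools in the submitters' processing notes are MACS 1.4.1, Bowtie 0.12.5 and CASAVA 1.8.2, with the build mm9. What each tool did, its settings and each list's control are not given in the sources used here. Per the labels' protocols, cells were fixed in 1% formaldehyde. Read totals were not analysed here, so depth is unknown. Whole-cell extracts were not analysed here.

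A single peak (1) outside the numbered and sex chromosomes was dropped. Coordinates are 1-based mm9. Gaps are bases between the nearest edges. Shares have Wilson intervals, and differences of shares combine both Wilson intervals. UTX-free H3K4me3 peaks were weighted to the UTX-bearing ones over 10 width or score classes. Overlap counts were tested on simulated peaks and against bedtools 2.31.1. Software was pandas 2.3.3, numpy 2.4.6, scipy 1.17.1 and matplotlib 3.10.9 under Python 3.11.15. The rule for named sites took shared peaks, the 10 highest scoring per list, and the 5 highest on H3K4me3 and 5 over 2500 bp from it, from which the text gives a selection. The members, rules and alternatives were chosen with earlier results of these data known. The alternatives were score minima, equal peak numbers, numbered chromosomes, fixed widths, other overlaps and distances, and leaving out sites with both marks. Weighting to equal widths and scores, and all alternatives for H3K4me3 peaks with and without UTX, were added after the data were seen.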

Additional observations from a re-analysis of the deposited data

Results flagged for a closer look

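H3K4me3 peaks with UTX differed from those without it in opposite directions in both cells. The share met by H3K4me3 of WT MEF differed by -18.28 points (with minus without UTX) for WT ESC peaks and by 14.87 points for WT MEF dox peaks. Each value comes from 1 library, and the difference between them was not tested. At equal widths the values were -25.4 points in WT ESC and 0.65 points in WT MEF dox, and at equal scores -18.0 and -1.25 points, so the opposite direction was not kept at equal scores.

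The UTX list of WT MEF without dox entered no main comparison, and 9 of its 372 peaks (2.42%, Wilson 95% interval 1.28 to 4.53) overlapped a WT ESC UTX peak. The count is above the 3 that a count of 0 allows, which is a counting limit and not a value expected by chance. Peaks of both histone marks in some list lay at 6 of the 9 and no mark at 1. Those 6 lie at 3 places on chromosomes 2 and 9, and the contribution of reads from repeated sequence there was not tested, so they are uncertain as shared UTX sites. They include the strongest WT MEF peak, at chr2:98506284-98507600, with scores of 241 in WT ESC and 320 in WT MEF.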

How the results depend on the processing

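Over 80 alternative values for 11 results, 58 lay inside the interval of the value reported, 20 moved outside it and 2 changed sign. The 2 sign changes concern H3K4me3 peaks of WT MEF dox met in Utx-KO MEF with dox, with minus without UTX (8.30 points), which became -1.51 points at equal widths and -3.09 at equal scores. A UTX score of at least 60 gave 19.7 points for the difference in the share within 2500 bp of H3K4me3, 3.29 for the log2 ratio of H3K4me3 peaks carrying UTX (2.31 as reported) and 8.61 points for the exchanged H3K4me3 maps (10.98 as reported). Equal numbers of 3540 UTX peaks gave 1.72% of WT MEF dox peaks within 2500 bp of WT ESC peaks, a log2 ratio of 1.85 and 2.12 points for WT ESC UTX on H3K27me3 of Utx-KO ESC minus WT ESC (2.58 as reported). Without UTX peaks at sites with both marks the last 2 were 2.50 and 1.396 points. The difference in H3K27me3 of Utx-KO ESC at H3K4me3 peaks with minus without UTX was -23.4 points (-20.3 as reported, -16.3 at equal widths, -18.7 at equal scores). That filter takes out UTX peaks on H3K4me3 that also lie on H3K27me3 of any list, Utx-KO ESC included. The shifts to 1.396 and -23.4 points are therefore built into the filter and are no check. H3K4me3 peaks set to 1000 bp gave 11.8 points for the difference in UTX on H3K4me3, 2.66 for the log2 ratio and 7.40 points for the exchanged maps. An overlap of at least 50% gave 15.4 points for UTX on H3K4me3 and 1.32 points for H3K27me3 of Utx-KO ESC minus WT ESC. A limit of 1000 bp gave 1.47% of WT MEF dox peaks near WT ESC peaks, and one of 5000 bp gave 3.33%, and 24.2 points for the share near H3K4me3. H3K4me3 of WT ESC met in Utx-KO ESC, with minus without UTX, was -12.3 points at equal widths and -8.38 points at equal scores. The causes were not tested. No paired analysis was possible because each group has 1 library and no test was made. The unknown depth, the 16 WT MEF dox UTX peaks with a score of at least 100 and the short H3K27me3 lists limit what these lists can show.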

Other observations

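UTX peaks of WT ESC stood in groups more often than those of WT MEF dox. Of neighbouring peaks along a chromosome, 298 pairs (5.89%) in WT ESC and 23 pairs (0.653%) in WT MEF dox were within 2500 bp of each other. With peaks linked over gaps of up to 12500 bp, 1199 WT ESC peaks (23.6%) and 210 WT MEF dox peaks (5.93%) had a neighbour. Groups of at least 3 peaks numbered 112 in WT ESC and 6 in WT MEF dox. The median gap between neighbours was 166181 bp in WT ESC and 408297 bp in WT MEF dox. Among the 3540 strongest WT ESC peaks, as many as in WT MEF dox, 645 (18.2%) had such a neighbour, and 46 groups had at least 3 peaks.

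The largest WT ESC group, at chr12:88208266-88245198, had 7 peaks over 36.9 kb with scores of 52.8 to 160, and 2 of them lay on H3K4me3. At chr17:35639204-35651514, 5 peaks with scores of 58.1 to 179 all lay on H3K4me3, and at chr5:118884600-118899936, 4 peaks with scores of 87.8 to 174 had none. Of the 112 groups 75 held at least 1 peak on H3K4me3 of WT ESC. The largest WT MEF dox groups had 4 peaks, at chr8:108386135-108407894, with 1 on H3K4me3, and at chr1:92373622-92396973, with none. The group of 4 WT ESC peaks at chr2:98502238-98507642 included 3 at positions where WT MEF had a UTX peak and where both histone marks had a peak in some list, and it is uncertain as a group of UTX sites, since the contribution of reads from repeated sequence was not tested.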
